A study of Mus musculus with 4 samples.

Results

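The genes encoding the proteasome and its activators were followed in pooled mouse liver on 4 single-colour Affymetrix arrays. A gene was a member when a probe set carried its symbol alone and that symbol began with Psm, a letter from a to g and a number, and each gene was read from its brightest probe set. The rule found 49 genes of 18193 with a singly named probe set. Of these, 48 passed the filter on dim genes, which asked for a mean signal above 204, and Psma8 did not. The symbols Psmc3ip and Psme3ip1 met the rule although neither gene encodes a proteasome subunit, so that 47 of the 49 belong to the proteasome by function. They comprised 14 constitutive core subunits, 17 regulatory particle subunits, 4 subunits of the immunoproteasome and its activator, 3 other activators or inhibitors, 7 assembly chaperones and 2 tissue-restricted core subunits. Psme2 was not valued, because its probe set also carries the symbol Psme2b.

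All animals had the labelled genotype Metff/ff:ERCre+/+, a floxed Met with a Cre recombinase that tamoxifen activates. The labels describe the deletion as systemic and do not name the promoter of the Cre. In the treated group, labelled delta MET + EGFRi, 5 days of tamoxifen injections deleted exon 16 of Met, which encodes the receptor for hepatocyte growth factor. A rest of 4 days followed, and then a diet with canertinib, which blocks the EGFR kinase, at an aimed 80 mg/kg/day. Control littermates carried the same alleles and received corn oil for 5 days, without tamoxifen or canertinib. Livers were taken at day 7 and day 10, and each of the 4 arrays held pooled RNA of 1 group at 1 day. By the sample titles, the treated animals had by then been fed canertinib for 7 or 10 days. The control titles name the day without a starting point. The labels give neither the size of the pools nor the age and sex of the animals. Effects of Met deletion, tamoxifen, canertinib and a change in food intake cannot be told apart in this design, and the 2 arrays of a group differ in day.

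The values were MAS5 signals on a linear scale, with array medians from 210.5 to 223.9. Summed signals of 9 hepatocyte markers lay between 380759 and 421283 on the 4 arrays, and all 9 were above the filter. That sum rests on a few very bright genes, and its members did not stay alike. Fabp1, a fatty acid binding protein, gave 58375.8 and 63240 in control and 2909 and 26549.1 in treated arrays. Hnf4a, Apob and Serpina1c were higher without overlap by log2 differences of 0.86, 0.68 and 0.18. These are 33.3% of the 9 markers, beside 20.3% of all kept genes. Fabp1 alone was lower without overlap, or 11.1% beside 24.1%, and the other 5 overlapped. The summed signal of 14 macrophage and Kupffer cell markers was 25499.2 and 14729.4 in the control arrays of day 7 and day 10, against 54831.9 and 54575.7 in the treated arrays. Of these 14 markers 12 had both treated arrays above both control arrays, or 85.7% beside 20.3% of all kept genes. Limma called 3 of the 14 higher, or 21.4% beside 0.375%. Summed neutrophil markers were 3531.7 and 3553.1 in control and 9498.1 and 9436 in treated arrays, with Camp at or under the floor on all arrays. S100a8 and S100a9 made up most of the treated sums. Of the 7 neutrophil markers above the filter 4 were higher without overlap, or 57.1% beside 20.3% of all kept genes. The other 3, Elane, Mpo and Ltf, overlapped. The part of these cells in any result was not tested. In pooled whole-liver RNA a gain or loss of cells of a type and a change of RNA per cell cannot be told apart.

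The proteasome degrades proteins that carry ubiquitin chains. Its core is a barrel of stacked rings, in which alpha subunits form the gated outer rings and beta subunits the inner rings with the proteolytic sites. The regulatory particle binds the ubiquitin chain, removes it and threads the unfolded substrate into the core by a ring of ATPases. On exposure to interferon gamma, cells replace the catalytic beta subunits by Psmb8, Psmb9 and Psmb10. The resulting immunoproteasome is abundant in cells of the immune system and produces peptides for MHC class I.

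No member passed the comparison of the treated with the control arrays. Limma with Benjamini-Hochberg adjustment over 11993 kept genes called 0 members higher and 0 lower at an adjusted p under 0.05, where 0.375% of all kept genes were called higher and 0.283% lower. At an unadjusted p under 0.05 there were 2 members, Psmb8 and Psmd13, among 1449 of the 11993 genes. The median size of the difference, disregarding sign, was 0.17 on the log2 scale over the 48 members and 0.27 over all kept genes. Each group had 2 arrays, so that these p-values measure only the spread between arrays, days included, and 0 calls do not show that the members were alike in both groups.

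With 1 array per side, single days were described by a fold of at least 1.5 without a test. At day 7, 7 members were at least 1.5-fold higher in treated than in control liver, or 14.6% of the 48, beside 12.1% of all kept genes. Only Psmb9 was lower by that size, 2.08% of the members beside 15.4% of all kept genes. With arrays scaled to equal medians these counts were 9 and 0. At day 10 only Psmb8 was higher, 2.08% of the members beside 14.6%, and 3 members were lower, 6.25% beside 13.5%. Those 3 were Psmd5, Psmg3 and Psmc3ip. Both days lay within 0.32 of 0 on the log2 scale for 24 of 48 members, or 50%, and for 24.8% of all kept genes.

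**Figure D1:**
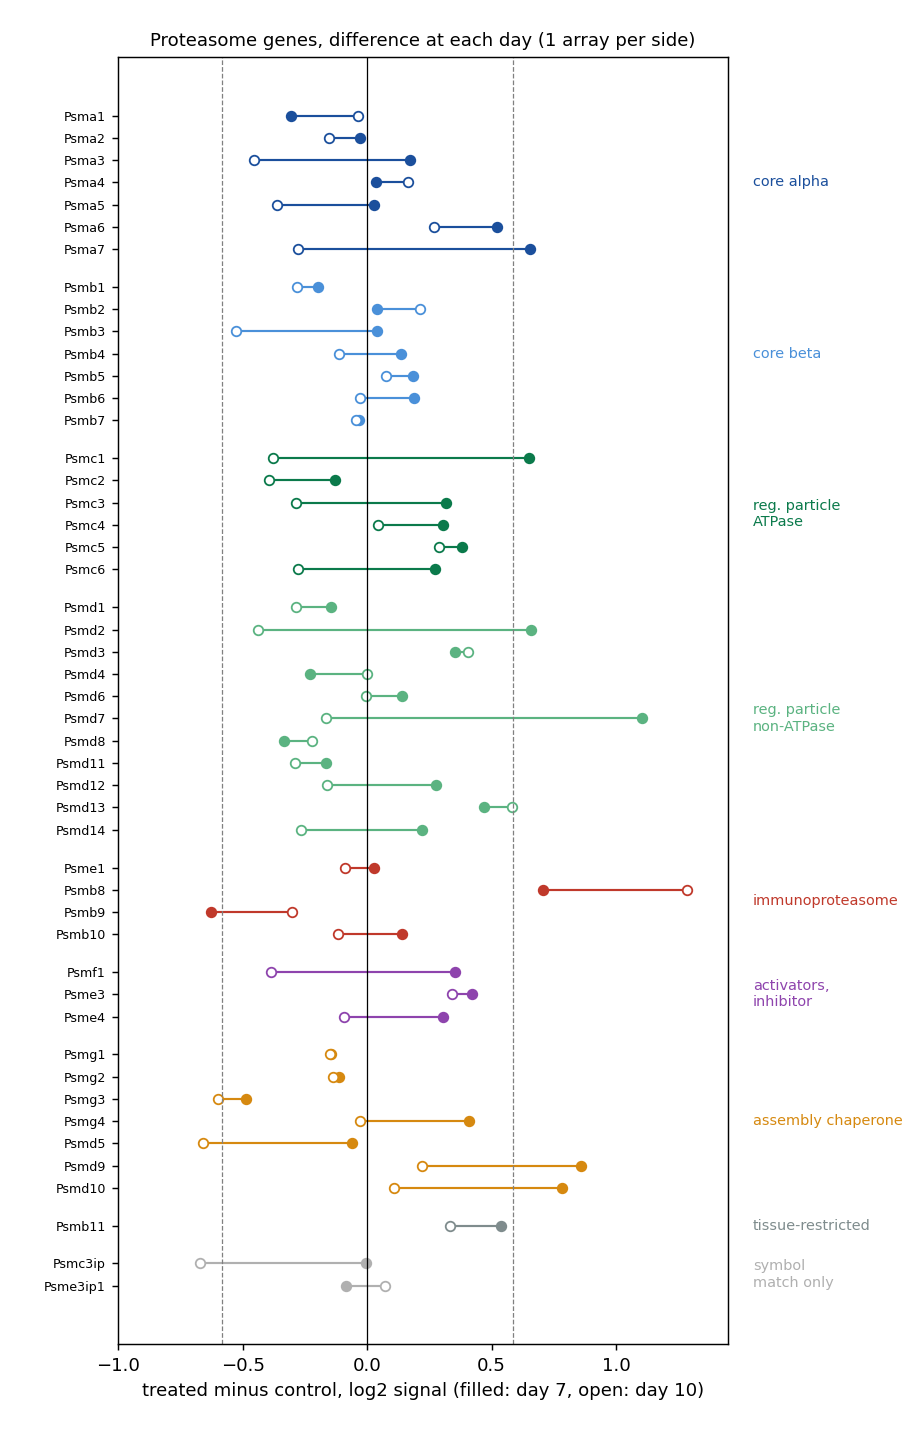
Treated minus control log2 signal of the 48 members that passed the filter, by class, with day 7 as filled and day 10 as open circles and 1 array per side. Dashed lines mark 1.5-fold. Psmb8 lies beyond the right line at both days, and many core and regulatory particle genes have the filled circle to the right of 0 and the open circle to the left.

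The immunoproteasome genes did not share a direction. Psmb8, which replaces Psmb5, had the largest difference of the 48 members, being higher in both treated arrays, while Psmb9, which replaces Psmb6, was lower in both. Psmb10, which replaces Psmb7, and Psme1, a subunit of the ring that caps the immunoproteasome, had overlapping arrays. None of the 4 passed limma.

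The signal of Psmb8 was 777.3 in the control array of day 7, 661.3 in that of day 10, 1269.8 in the treated array of day 7 and 1612 in that of day 10. Both treated arrays were above both control arrays, and the treated array of day 10 was the highest. The means were 719 ± 82.0 in control and 1441 ± 242 in treated liver (SD, n = 2). This is 1.996-fold, a log2 difference of 0.997 with SE 0.23 and an adjusted p of 0.172 by limma. The fold was 1.63 at day 7 and 2.44 at day 10. Over the other scalings, floors, filters, probe set summaries, fits and left-out arrays the log2 difference of Psmb8 ranged from 0.74 to 1.17 and its adjusted p from 0.0564 to 0.592. A dimmer probe set of Psmb8, under the filter, gave 97.2 and 147.7 in control and 167.2 and 167.1 in treated arrays, also without overlap. The macrophage and neutrophil marker sums given above were higher in the same 2 arrays as Psmb8. Summed B and plasma cell markers were 19947.8 and 15814.1 in control and 31249.1 and 38351.5 in treated arrays. That sum was made up mostly of Xbp1 and Ighm, which were higher without overlap. Xbp1 alone gave 13021 and 10180.4 in control and 15263.6 and 25375.7 in treated arrays. Which cells of the whole liver its signal came from was not tested, so the sum is not a measure of B and plasma cells. Of the 8 B and plasma cell markers, 3 were higher and 2, Cd79b and Ms4a1, lower without overlap. These are 37.5% and 25%, beside 20.3% and 24.1% of all kept genes. Summed T and NK cell markers were 2964.9 and 2772 against 3090.4 and 3738.4, a sum made up mostly of Cd8a, which overlapped. Of these 8 markers 3 were above the filter, and 1 of the 3, Cd3e, was higher without overlap, or 33.3% beside 20.3%. Under the filter, Cd3g and Gzmb were higher and Cd4 and Nkg7 lower without overlap. Summed dendritic cell markers, at 2219.7 and 2751.6 against 1400.2 and 2414.9, overlapped between the groups. Of the 6 markers 3, Cd209a, Itgax and Siglech, were lower without overlap, or 50% beside 24.1% of all kept genes, and 0 were higher.

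Psmb9 had signals of 904.3 and 644 in the control arrays of day 7 and day 10, and of 584.6 and 522.9 in the treated arrays. The groups did not overlap, but the control arrays lay further apart than the control array of day 10 and either treated array. The log2 difference was -0.46 with SE 0.26, with an adjusted p of 0.532 by limma. Psmb10 gave 835.5 and 820.5 in control and 919.7 and 757.1 in treated arrays, the treated arrays lying on either side of the control arrays. Psme1 gave 3304.6 and 3344.9 in control and 3371.8 and 3142 in treated arrays, again on either side. The log2 differences of Psmb10 and Psme1 were 0.01 and -0.03.

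Within each array the immunoproteasome subunit was also set against the subunit it replaces, and the change of that log2 ratio between groups was taken, which shows unequal change only. The ratio of Psmb8 to Psmb5 was 0.87 higher in treated arrays, by 0.52 at day 7 and 1.21 at day 10. An exact two-sided permutation test over the 4 arrays gave p = 0.333, the smallest that 2 against 2 arrays allow. The ratio of Psmb9 to Psmb6 was lower, with a change of -0.55 and an exact permutation p of 0.667, since the control array of day 10 lay between the treated arrays. The ratio of Psmb10 to Psmb7 changed by 0.05, with an exact permutation p of 1. These 3 p-values were not adjusted, since none could fall under 0.05.

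**Figure D2:**
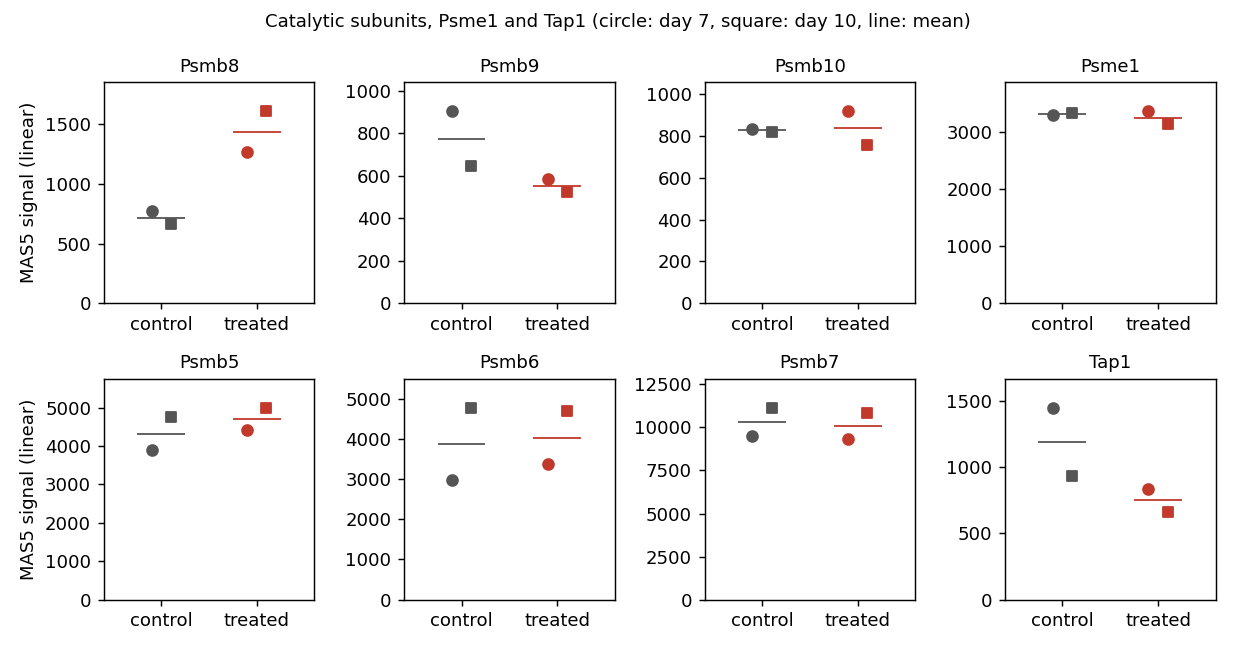
Linear MAS5 signal on each of the 4 arrays for the immunoproteasome subunits, the constitutive subunits they replace, Psme1 and the peptide transporter gene Tap1, with circles for day 7, squares for day 10 and a line at the mean of each group. Psmb8 is higher in both treated arrays, Psmb9 and Tap1 are lower in both, and the other 5 genes overlap between groups. Each panel has its own axis, which starts at 0.

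The promoters of these catalytic genes are shown because the genes differed in direction. Psmb8 and Psmb9 are neighbours on chromosome 17 among MHC class II genes, in the order Psmb9, Tap1, Psmb8, Tap2. Psmb9 and Tap1 run in opposite directions from starts 225 bases apart. Sequences are from RefSeq on GRCm38.p6, read 5′ to 3′ on the strand of the gene. They cover chr17:34198045-34198194 (plus strand), the 150 bases before the start of Psmb8, chr17:34187331-34187555 (minus strand), the 225 bases between the starts of Psmb9 and Tap1, and chr14:54617996-54618145 (minus strand), the 150 bases before the start of Psmb5. Capitals mark a match to TTCNNNGAA, the core of a gamma interferon activation site, in Psmb8, and to TGACNNNGC, the core of an antioxidant response element, in Psmb5.
Psmb8: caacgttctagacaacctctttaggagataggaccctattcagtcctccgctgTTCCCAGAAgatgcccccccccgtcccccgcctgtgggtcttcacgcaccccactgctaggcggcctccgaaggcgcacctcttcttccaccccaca
Psmb9: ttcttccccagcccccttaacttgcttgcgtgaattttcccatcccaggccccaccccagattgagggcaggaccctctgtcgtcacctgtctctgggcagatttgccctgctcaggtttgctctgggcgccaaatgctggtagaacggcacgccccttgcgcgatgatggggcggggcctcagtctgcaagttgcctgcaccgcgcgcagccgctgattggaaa
Psmb5: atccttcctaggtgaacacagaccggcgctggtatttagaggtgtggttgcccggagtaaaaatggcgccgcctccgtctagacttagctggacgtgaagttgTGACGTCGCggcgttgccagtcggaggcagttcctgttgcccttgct

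Promoters, 250 bases before to 50 after an annotated start, were available for 41 of the 49 members, and both strands were searched. Shares of all promoters count every promoter, whereas a member gene counts once if any of its promoters matches, so these measures are unlike. TTCNNNGAA occurred in 8.30% of 32851 promoters, in 1 of 4 immunoproteasome genes (Psmb8) and in 1 of 25 core and regulatory particle genes. TGACNNNGC occurred in 12.4% of promoters and in 4 of those 25 genes, or 16%, namely Psmb5, Psmb6, Psmd12 and Psmc6, and in 0 of 4 immunoproteasome genes. The core of an interferon stimulated response element, GAAA followed after any 2 bases by GAAA, occurred in 3.44% of promoters, in 2 of the 25 genes and in 1 of the 4, Psme1. The printed stretch of Psmb9 holds none of the 3 patterns. A match describes letters in this window and is not a site of binding.

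The 14 constitutive core subunits had medians near 0 between the groups, with signs that differed between the days. Treated minus control, their median was 0.04 on the log2 scale at day 7, -0.08 at day 10 and -0.01 over both days, beside -0.06, 0.01 and -0.02 for all kept genes. Of the 14 genes 10 were above 0 at day 7 and 4 at day 10, and 6 went from above to below while 0 went the other way. The core median at day 7 was -0.02 with quantile normalization, so that its sign rests on the scaling. Psma7 was the only core gene past 1.5-fold at either day, and 9 of the 14 were within 0.32 of 0 on the log2 scale at both days.

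Among the alpha subunits, which form the outer rings and the gate, Psma6 had signals of 2977.6 and 3450.9 in control and 4276.6 and 4159.5 in treated arrays. The treated arrays were higher without overlap, with a log2 difference of 0.40, SE 0.20 and an adjusted p of 0.504 by limma. A second bright probe set of Psma6 gave the opposite sign, with a difference of -0.14 and treated arrays below control arrays. Psma7 gave 2777.4 and 3991.3 in control and 4373.8 and 3291.5 in treated arrays, so that it was 1.57-fold higher at day 7 and lower at day 10. Psma1 differed more between days than between groups, with 1521 and 2094 in control and 1230 and 2039 in treated arrays. The log2 differences of Psma2, Psma3, Psma4 and Psma5 over both days ranged from -0.17 to 0.10.

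Among the beta subunits, Psmb2 was the only one without overlap on its brightest probe set. It gave 2278 and 2126 in control and 2339 and 2463 in treated arrays, a log2 difference of 0.13. The 3 catalytic subunits had overlapping arrays. Psmb5, the chymotrypsin-like subunit, gave 3899 and 4747 in control and 4428 and 4999 in treated arrays, and Psmb6, the caspase-like subunit, gave 2967 and 4780 against 3383 and 4684. Psmb7, the trypsin-like subunit, gave 9527 and 11150.1 against 9303 and 10809.9. All 3 were higher at day 10 than at day 7 in both groups, with log2 changes from 0.23 to 0.69 in control and 0.18 to 0.47 in treated arrays. Psmb1, Psmb3 and Psmb4 had log2 differences between -0.24 and 0.01, with overlapping arrays. Each had another probe set without overlap, lower for Psmb1 with -0.20 and Psmb3 with -0.29 and higher for Psmb4 with 0.22.

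The regulatory particle had wider medians at single days than the core, with a similar pattern of signs, and the difference between the classes was not tested. Treated minus control, its median was 0.28 on the log2 scale at day 7, -0.22 at day 10 and 0.06 over both. Of its 17 genes 12 were above 0 at day 7 and 4 at day 10, or 70.6% and 23.5%, against 71.4% and 28.6% in the core. No gene of the particle passed limma, and 3 had treated arrays above control arrays without overlap and 4 had them below. Over all 48 members 8 were higher without overlap, or 16.7%, beside 20.3% of all kept genes, and 8 were lower, or 16.7%, beside 24.1%.

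Psmd13, a lid subunit, came nearest to the threshold among the 17. Its signal was 1017.1 and 996.6 in the control arrays and 1410.2 and 1490.7 in the treated arrays, with both days about equally apart. The means were 1007 ± 14.5 and 1450 ± 56.9 (SD, n = 2), a 1.44-fold difference. On the log2 scale this is 0.53 with SE 0.20 and an adjusted p of 0.379 by limma. Other bright probe sets of Psmd13 gave 0.62 and 0.35, and one more gave -0.21, so that the gene's probe sets disagree in sign. Psmd3, also a lid subunit, gave 1477 and 1702 in control and 1884 and 2256 in treated arrays, a log2 difference of 0.38. Psmc5, an ATPase of the ring that unfolds substrates, gave 2088 and 2648 against 2722 and 3232, a difference of 0.33. Neither gene's groups overlapped.

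The 4 lower genes differed by smaller amounts. Psmd8, a lid subunit, gave 4005 and 3655 in control and 3173 and 3131 in treated arrays, a log2 difference of -0.28. Psmc2, an ATPase, gave 3929.9 and 4848 against 3595 and 3689, a difference of -0.26. A second bright probe set of Psmc2 gave -0.25, with overlapping arrays. Psmd1, a scaffold of the base, gave 3106 and 3259.8 against 2805 and 2674, a difference of -0.22. Psmd11, a lid subunit, had a difference of -0.23, and its other bright probe sets gave values from -0.59 to 0.22. The adjusted p of these 4 genes lay between 0.624 and 0.705 by limma.

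In 3 regulatory particle genes the arrays of 1 group lay far apart. Psmd7, the partner of the deubiquitinase Psmd14, gave 337.9 in the control array of day 7 against 789.4, 727.4 and 703.3 in the control array of day 10 and the treated arrays of day 7 and day 10. It was therefore 2.15-fold higher in treated liver at day 7, and 0.89-fold at day 10. Psmd2, a scaffold of the base, gave 1673.2 and 3798.8 in control and 2639.8 and 2799.9 in treated arrays, with the control arrays as the lowest and the highest. Psmc1, an ATPase, gave 1463.8 and 1622.9 in control and 2297.7 and 1247.9 in treated arrays, where the treated arrays lay on either side. Without the control array of day 7, the log2 difference of Psmd7 was -0.14 and that of Psmd2 was -0.48. Without the control array of day 10 they were 1.08 and 0.70. The remaining 7 subunits had log2 differences from -0.11 to 0.17 over both days, and none was without overlap on its brightest probe set. They were the ATPases Psmc3, Psmc4 and Psmc6, the ubiquitin receptor Psmd4, the lid subunits Psmd6 and Psmd12 and the deubiquitinase Psmd14. A second probe set of Psmd6 was lower without overlap with -0.51, and a second one of Psmc4 was higher without overlap with 0.28.

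Between the days, most core and regulatory particle genes had a higher signal at day 10 than at day 7 in the control arrays, though by less than 1.5-fold in all but 3. From day 7 to day 10 the median log2 change of the 31 genes was 0.30 in control liver, with 26 of 31 above 0, or 83.9%, beside a median of -0.02 and 47.6% above 0 for all kept genes. In treated liver it was 0.04, with 16 of 31 above 0, or 51.6%, beside 52.5%. By class the control medians were 0.26 for the core and 0.32 for the regulatory particle, and the treated medians 0.06 and -0.01. Each change is between 2 arrays and has no test, and day 7 against day 10 cannot be told apart from a difference between the pools or arrays.

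The size of these changes was mostly under 1.5-fold. In control liver 4 of 48 members were at least 1.5-fold higher at day 10, or 8.33%, beside 7.25% of all kept genes, and 0 were lower, beside 9.56%. They were Psmb6, Psmd2, Psmd7 and Psmd10. In treated liver 2 members, Psma1 and Psmd4, were higher, beside 12.6% of all kept genes, and 2, Psmc1 and Psmc3ip, were lower, beside 10.5%. Averaging all probe sets of a gene left 8 of 14 core genes above 0 in control, with a median of 0.15, and 12 of 16 regulatory particle genes, with a median of 0.21.

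**Figure D3:**
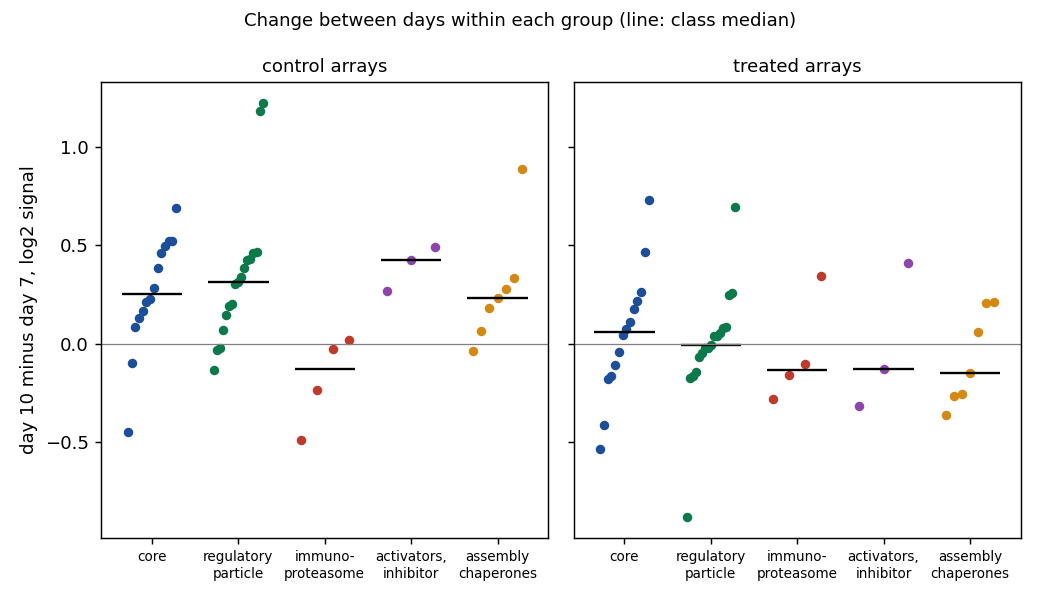
Log2 change from day 7 to day 10 within the control arrays (left) and within the treated arrays (right), 1 point per gene in order of its value, with a line at the median of each class. In control liver most core and regulatory particle points lie above 0, with medians of 0.26 and 0.32, and in treated liver the medians are 0.06 and -0.01.

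The same arrays set the sign of the treated minus control difference at each day. Of the 31 core and regulatory particle genes 22 were above 0 at day 7 and 8 at day 10, or 71.0% and 25.8%, beside 45.1% and 50.6% of all kept genes. In all, 14 of the 31 genes were higher at day 7 and lower at day 10, or 45.2% beside 18.3%, and 0 had the reverse order. Among the 4222 kept genes with a mean signal over 1000, which lie closer in signal to these subunits, 21.8% were higher at day 7 and lower at day 10. Without the control array of day 7 the median of the regulatory particle over both days was -0.20, and without that of day 10 it was 0.21. The direction of the regulatory particle thus rests on which control array is used.

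**Figure D4:**
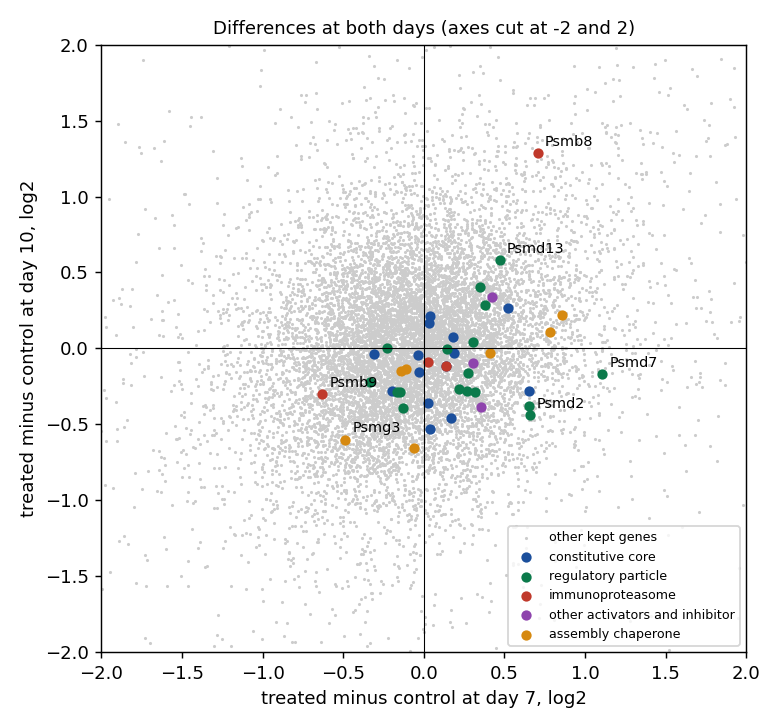
Treated minus control log2 difference at day 7 (x axis) and at day 10 (y axis), 1 array per side, for all kept genes (grey) and for the proteasome genes by class, with both axes limited to the range from -2 to 2. Psmb8 stands at the upper right with 0.71 and 1.29, and 14 of the 31 core and regulatory particle genes lie in the lower right quadrant.

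Among the other activators and the inhibitor, Psme3, the nuclear activator ring, gave 343.7 and 483.6 in control and 460.4 and 612 in treated arrays. This is a log2 difference of 0.38 with overlapping arrays. A second probe set of Psme3 above the filter gave the opposite sign, with -0.18 and overlap. Psme4, a single-chain activator that caps the core, gave 2709 and 3266 in control and 3345 and 3059 in treated arrays. Its other probe sets above the filter gave from -0.22 to 0.38, and both of these extremes were without overlap. Psmf1, an inhibitor of the core, gave 1046 and 1407 against 1337 and 1075, with 1.28-fold at day 7 and 0.76-fold at day 10. The adjusted p of the 3 genes lay between 0.655 and 0.987 by limma.

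The 7 assembly chaperones went in both directions. Psmg1 and Psmg2, and likewise Psmg3 and Psmg4, act as pairs that assemble the alpha ring, while Psmd5, Psmd9 and Psmd10 bind the ATPases until the base is complete. Psmg3 gave 568.3 and 553.6 in control and 405.1 and 365 in treated arrays, without overlap, a log2 difference of -0.54 with SE 0.24 and an adjusted p of 0.433 by limma. Its partner Psmg4 gave 661.5 and 751.5 against 877.7 and 736.5, with overlap. Psmg1 gave 1887 and 1973 in control and 1708 and 1781 in treated arrays, lower without overlap by a log2 difference of -0.15. For Psmg2 the difference was -0.13, with overlap, and another of its probe sets gave -0.80.

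The chaperones of the base differed from each other. Psmd9 gave 844.1 and 1024 in control and 1532 and 1193 in treated arrays, without overlap, a log2 difference of 0.54 with an adjusted p of 0.437 by limma. Psmd5 gave 1156 and 1458 against 1109 and 923.8, lower without overlap, with a difference of -0.36 that came mostly from day 10. Psmd10 gave 174.8 in the control array of day 7 and 323.4, 300.7 and 348.1 in the control array of day 10 and the treated arrays of day 7 and day 10. Its difference was 0.44, and 0.00 without the control array of day 7.

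The remaining members are not expected in the liver proteasome. Psmb11, the catalytic subunit of the thymus proteasome, gave 208.8 and 255.7 in control and 302.9 and 322.5 in treated arrays, near the filter, with a log2 difference of 0.44. Psma8, the alpha subunit of the testis proteasome, gave 44 and 98.2 in control and 24 and 168.3 in treated arrays, and was not tested. Psmc3ip, a factor of meiotic recombination, was at 491.8 and 465 against 490.3 and 292, and Psme3ip1, which binds Psme3, had a difference of -0.01.

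Genes around the proteasome that carry no Psm symbol were read from lists in the same fit. Of 15 kept genes for proteasome-associated proteins, 0 passed limma in either direction, and at an unadjusted p under 0.05 there were also 0. Without overlap 1 of the 15 was higher and 2 were lower, or 6.67% and 13.3%, beside 20.3% and 24.1% of all kept genes. The lower genes were both deubiquitinases on the list that associate with the particle. Uchl5 gave 837.4 and 1164.1 in control and 628.4 and 740.1 in treated arrays, a log2 difference of -0.53. Usp14 gave 5292.7 and 4045.3 against 3828.4 and 3331.3, a difference of -0.37. The shuttle factor Ubqln1 was higher without overlap by 0.10.

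Of 7 kept regulators of proteasome gene transcription 0 passed limma and 2 had an unadjusted p under 0.05, beside 1449 of all 11993 kept genes. Without overlap 1 of the 7 was higher and 2 were lower. These are 14.3% and 28.6%, beside 20.3% and 24.1% of all kept genes. Nfe2l1, which drives proteasome genes when degradation is impaired, gave 1197.6 and 870.3 in control and 1024.3 and 1455 in treated arrays, with overlap. Its relative Nfe2l2 gave 3049.1 and 3611.4 against 2612.6 and 2550.2, lower without overlap by a log2 difference of -0.36. Of the small Maf proteins that pair with both, Mafg was higher without overlap with 0.68 and Mafk lower with -0.87. Of 5 kept genes for the E1 enzyme, the segregase and ubiquitin-binding factors 0 passed and 0 had an unadjusted p under 0.05. Vcp, the segregase, was higher without overlap by 0.11. This is 1 of the 5, or 20%, beside 20.3% of all kept genes, and 0 were lower, beside 24.1%.

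In the MHC class I pathway, which takes up the products of the immunoproteasome, 0 of 11 kept genes passed limma and 0 had an unadjusted p under 0.05, while 5 were higher and 2 lower without overlap. These are 45.5% and 18.2% of the list, beside 20.3% and 24.1% of all kept genes. Tap1, which shares the stretch between the starts with Psmb9, gave 1447.5 and 932.8 in control and 833.4 and 662.6 in treated arrays. As in Psmb9, both treated arrays were below both control arrays, with a log2 difference of -0.64 and an adjusted p of 0.440 by limma. Nlrc5, a transactivator of class I genes, H2-D1, a class I heavy chain, and B2m, the light chain, had differences of 0.57, 0.51 and -0.40 without overlap. Of 9 kept interferon signalling genes 0 passed and 1 had an unadjusted p under 0.05, beside 1449 of all 11993 kept genes. Without overlap 3 of the 9 were higher and 1 was lower. These are 33.3% and 11.1%, beside 20.3% and 24.1% of all kept genes. Ifngr2, a chain of the interferon gamma receptor, was lower without overlap with -0.73, and Ifngr1, Ifnar2 and Irf1 were higher with 0.49, 0.44 and 0.18.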

How the data were processed

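Per the submitters' processing notes, the deposited intensity values come from MAS5 (version not given in the sources used). They are linear signals of 1 array per group and day. Of 45101 probe sets 34945 carried a single symbol in the platform annotation. Signals under the 25th percentile (64.8) were set to it before log2, each gene was read from its brightest probe set, and the 11993 genes whose mean log2 exceeded the probe sets' median were kept. Treated and control arrays were tested two-sided with limma (version 3.58.1, under R version 4.3.3) by lmFit and eBayes, with a trend on intensity and Benjamini-Hochberg adjustment over all kept genes, after the step was tested on simulated data. There were 2 residual degrees of freedom and no day term. SDs are of linear signals. All members are named, with up to 4 genes without overlap of each context list by size of difference, while Nfe2l1 was named for its role. Figures used Python 3.11.15 and matplotlib 3.10.9. The members and lists were chosen with earlier results of these data known. The interferon stimulated response element and the genes over a signal of 1000 were added after seeing the data.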

Additional observations from a re-analysis of the deposited data

Results flagged for a closer look

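The difference between treated and control liver had opposite signs at the 2 days for the median of both large classes. For the constitutive core the median at day 10 minus that at day 7 was -0.12 on the log2 scale, going from 0.04 to -0.08. For the regulatory particle the median at day 10 minus that at day 7 was -0.50, going from 0.28 to -0.22.

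Of single genes with at least 0.32 on the log2 scale in opposite directions at the 2 days, the difference at day 10 minus that at day 7 was -1.03 for Psmc1, -1.10 for Psmd2 and -0.74 for Psmf1. For Psmd2 the control arrays were the lowest and the highest of the 4, and for Psmc1 the treated arrays were. With 1 array per side these differences between days were not tested.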

How the results depend on the processing

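Limma called 0 members under quantile normalization, equal medians, both other floors, a stricter filter and none, averaged probe sets, no trend, day as a block, each left-out array and an adjusted p under 0.1. Of 16 members without overlap, 4 of 215 values turned direction, all from another probe set: -0.14 for Psma6, 0.20 and 0.22 for Psmd11 and -0.21 for Psmd13. Most of the 215 values could not turn, so their number does not measure how firm a direction is. Leaving out an array cannot turn a direction where the groups do not overlap. Other floors, filters and fits do not change the difference of a gene whose signals lie above the floor. Other probe sets above the filter existed only for Psma6, Psmc2, Psmd11 and Psmd13. Leaving out an array, which leaves fewer arrays to overlap, gave 9 to 27 members higher and 11 to 25 lower without overlap.

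The 7 members at least 1.5-fold higher at day 7 became 3 with the mean of probe sets, 1 at 2-fold and 15 at a size of 0.32 on the log2 scale. The 1 lower became 0 with equal medians, 2 with the mean of probe sets, 0 at 2-fold and 3 at 0.32. At day 10 the 1 higher became 2 with no filter, 2 with the mean of probe sets and 5 at 0.32, and the 3 lower became 1 with the filter at the 75th percentile, 1 with the mean of probe sets, 0 at 2-fold and 10 at 0.32. The median of the core over both days was 0.088 with the mean of probe sets and ranged from -0.11 to 0.079 over left-out arrays. The cause was not tested, apart from the other size rules, which move such counts by construction. In the fit with day as a block, which pairs the arrays of a day, the adjusted p of Psmb8 was 0.31. The labels carry no replicate numbers that could pair the arrays otherwise. With 2 arrays per group of pooled RNA, the number of arrays limits the precision.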
